A study of Mus musculus with 26 samples.

Results

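Ccn1, Ccn2, Ccn4 and Ccn5 are 4 of the 20430 gene symbols in the RNA tables and of the 19941 in the ribosome footprint tables of a study of stressed mouse fibroblasts. They were taken by name, and every row under an older symbol (Cyr61 for Ccn1, Ctgf for Ccn2, Wisp1 for Ccn4, Wisp2 for Ccn5) was added to the same gene. The RNA tables held Cyr61, Ctgf and Wisp2, and for Ccn4 they held 2 rows, named Ccn4 and Wisp1. The footprint tables held the older symbols only.

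The cells were NIH3T3, an immortalised mouse embryonic fibroblast line, so every library came from 1 line and none from primary tissue. PolyA-selected RNA was sequenced in 16 libraries and ribosome-protected footprints, the mRNA fragments that translating ribosomes shield from nuclease, in 10. The heat experiment compared unstressed control cells with cells kept at 44 °C for 2 h or at 42 °C for 8 h. A separate experiment compared 1 control group with oxidative stress (H2O2 for 2 h or 7 h) and osmotic stress (KCl for 2 h or 7 h). Every group had 2 libraries, the same 2 control libraries serve all H2O2 and KCl comparisons, and the sources used here give no concentration of either agent. The sources do not say whether replicates were separate cultures, so p-values measure only the spread between these libraries. Total counts lay between 24441877 and 45244430 per RNA library and between 1460751 and 5168537 per footprint library, the lowest being replicate 1 of H2O2 at 2 h. The fibroblast label was checked on 10 marker genes: Col1a1 lay between 694 and 2835 TPM (transcript abundance scaled for gene length and library size) and Vim between 1783 and 4402. Other fibroblast markers were much lower: Thy1 lay between 7.6 and 64.2 TPM, Pdgfra between 14.55 and 42.25 and Pdgfrb between 10.67 and 121.81. The leukocyte markers Adgre1 and Cd3e were listed at 0 in all 16 RNA libraries and Ptprc reached at most 0.05. Some markers of other cell types were present: Cd68 lay between 5.32 and 44.7 TPM, the epithelial Krt18 between 6.46 and 17.2 and the adipocyte Fabp4 between 3.79 and 13.5.

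CCN proteins are matricellular: they are secreted into the extracellular matrix, where they act on cells through integrins, syndecans and LRP receptors rather than as scaffold. Ccn1 and Ccn2 are immediate early genes of fibroblasts, well known as targets of the Hippo pathway effectors YAP and TAZ with TEAD factors, and Ccn2 is also a target of TGF-beta and a mediator of fibrosis. Ccn4 and Ccn5 were named as Wnt-inducible genes, and Ccn5 differs from the others in lacking the C-terminal cystine knot domain.

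The sequence shown is the only promoter of the 4 genes held by the RefSeq table used here (assembly GRCm38.p6), and it is printed because Ccn1 RNA was among the most changed of the 4 in both experiments. The Ccn1 gene lies on chromosome 3 at 145646971 to 145649985, minus strand, and the 250 bases before its start are chr3:145649986-145650235, given 5′ to 3′ on the gene's strand. Capitals mark the matches that were found.

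Ccn1 promoter: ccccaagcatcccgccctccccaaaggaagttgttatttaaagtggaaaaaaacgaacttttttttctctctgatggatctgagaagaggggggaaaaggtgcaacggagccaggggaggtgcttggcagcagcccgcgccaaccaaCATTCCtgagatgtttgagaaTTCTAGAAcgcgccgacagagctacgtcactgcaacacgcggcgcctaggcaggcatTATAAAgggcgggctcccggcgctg

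The first match, at -103 to -98 from the start, is CATTCC, the reverse complement of the TEAD motif GGAATG, which 12.6% of 32851 promoter windows of the same length hold on either strand. The next, at -82 to -75, is TTCTAGAA, a match to the heat shock pair TTCNNGAA. That pair is an inverted repeat of the GAA unit of heat shock elements, not a full element, and is held by 7.17% of the windows. The last is TATAAA at -25 to -20, searched on the sense strand only and held by 7.59%. The AP-1 motif TGANTCA, the CRE motif TGACGTCA, the heat shock pair GAANNTTC, the TCF motif CTTTGAT and the CArG box were searched on both strands and gave no match in this window. They occur in 6.75%, 1.55%, 6.69%, 3.21% and 1.47% of windows, in that order. A match describes letters in the window and was not linked to any change reported here. Ccn2 lies on chromosome 10 at 24595442 to 24598683, Ccn4 on chromosome 15 at 66891369 to 66923201 and Ccn5 on chromosome 2 at 163820752 to 163833146.

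The 4 genes were selected on a measured value, the fall of the row named Ccn4 at 44 °C for 2 h. It was the largest fall among rows with a mean log2 CPM (counts scaled to library size) of at least 3, an adjusted p below 0.05 and no overlap with the control libraries. The heat values are therefore given as a description, with no test read from them. In the row named Ccn4 the counts were 1440 and 797 in the control libraries, 61 and 195 at 44 °C, and 1005 and 580 at 42 °C. Its log2 change at 44 °C was -2.93 (SE 0.31), next to -2.90 for Rhoj and -2.74 for Gjb2. The Wisp1 row of the same gene held 8655 and 7098 counts in the control libraries and 6798 and 6021 at 44 °C, and its log2 change was -0.12 (SE 0.045). With both rows added, as the choice of members asks, Ccn4 RNA differed from the control by -0.28 (SE 0.046), and it ranked 7188 of 12746 genes by size of change. The large fall was thus in the smaller row, while the row with most of the Ccn4 counts stood close to the control.

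The row named Ccn4 held between 0% and 14.3% of the gene's counts over the 16 libraries. The highest share was in control replicate 1 of the heat experiment (14.3%, 95% exact binomial interval 13.6 to 15.0) and the lowest in replicate 2 of KCl at 7 h, with 0 of 1750 counts. A limit of 3 counts puts that share at up to 0.171%, and the exact interval reaches 0.211%. At 44 °C the shares were 0.889% and 3.14%, below both heat controls. The 2 control libraries of the H2O2 and KCl experiment had 5.99% and 4.10%, so controls of separate experiments also differed in this share. Intervals and limits cover counting error only. RefSeq lists 2 coding transcripts and 1 noncoding transcript for Ccn4, and whether the rows correspond to different transcripts was not tested.

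**Figure D1:**
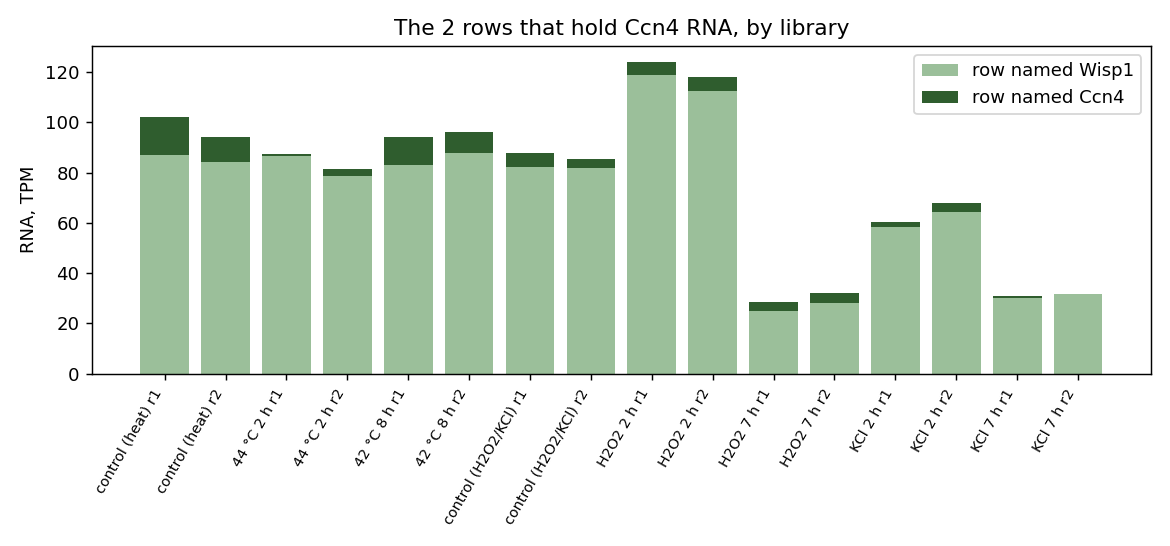
RNA level of Ccn4 in TPM (linear axis from 0) for each of the 16 RNA libraries, as the sum of the row named Wisp1 (light) and the row named Ccn4 (dark), with r1 and r2 for the replicates. The dark part is largest in control replicate 1 of the heat experiment (15.0 of 102 TPM) and smallest in both KCl 7 h libraries and in replicate 1 of 44 °C 2 h.

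In the heat experiment Ccn1 and Ccn2 lay far below the control at 44 °C, and only Ccn2 lay far above it at 42 °C. Ccn1, a heparin-binding integrin ligand that promotes adhesion and migration, was at 251 and 223 TPM in the control libraries, 43.5 and 47.4 at 44 °C, and 245 and 254 at 42 °C. Severe short heat stood apart from the other 2 heat groups, which overlapped in TPM, while in CPM (counts scaled to library size) both libraries at 42 °C lay above the controls by 0.26 on the log2 scale (SE 0.056). The Ccn1 level at 44 °C was 5.46-fold lower than in the control, a log2 change of -2.45 (SE 0.063).

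Ccn2, the connective tissue growth factor, was at 53.3 and 45.7 TPM in the control libraries, 18.3 and 16.4 at 44 °C, and 121 and 114 at 42 °C. The 3 groups did not overlap and lay on opposite sides of the control. Its log2 change was -1.58 (SE 0.077) at 44 °C, 2.99-fold lower, and 1.44 (SE 0.065) at 42 °C, 2.70-fold higher. Between the 2 heat regimes Ccn2 was 8.08-fold higher at 42 °C for 8 h, and Ccn1 was 6.53-fold higher.

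Ccn4 was at 102 and 94.2 TPM in the control libraries, 87.4 and 81.4 at 44 °C, and 94.3 and 96.2 at 42 °C, where it overlapped the control in TPM but not in CPM. Ccn5, which opposes growth of smooth muscle cells, was at 269 and 283 TPM in the control libraries, 179 and 183 at 44 °C, and 147 and 164 at 42 °C. Both heated groups of Ccn5 thus lay below the control, by 1.61-fold and 1.56-fold on the count scale. Against the control, all 4 genes were past the threshold (adjusted p 0.05) on the low side at 44 °C, beside 71% of all genes past it in either direction and 35.6% on the low side. At 42 °C, 3 were on the high side and 1 on the low side, beside 63.7% of all genes past it (31.7% high, 32% low). Between 42 °C and 44 °C, 3 were higher at 42 °C, beside 37.9% of all genes higher and 75.1% either way. These counts are read no further, since the choice of the genes used this experiment. On the TPM scale the median gene shifted by -0.15 at 42 °C against control, and there Ccn4 was at -0.042 where the count scale gave 0.15.

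**Figure D2:**
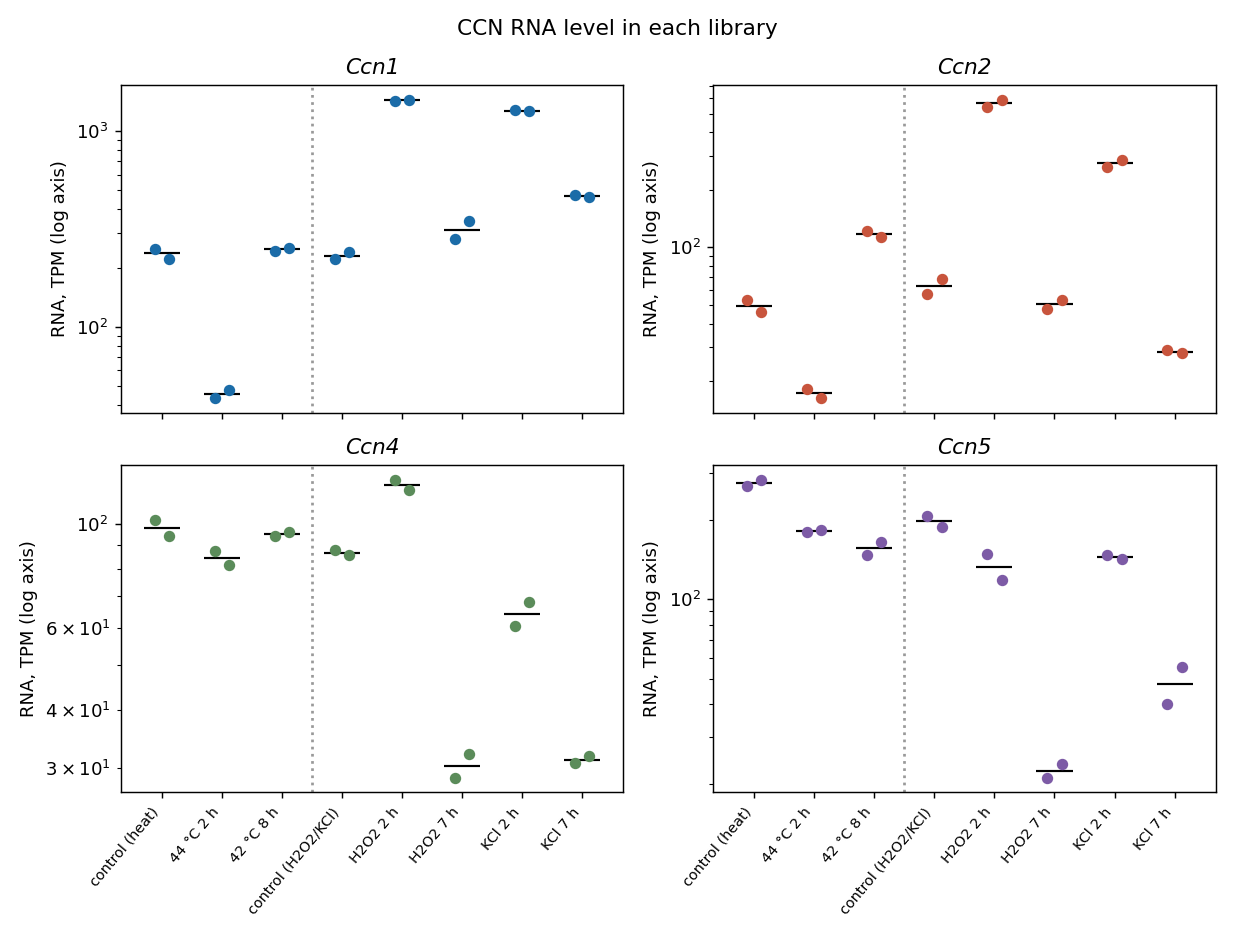
RNA level in TPM on a log axis (each panel has its own range) for the 4 genes in all 16 libraries. Points are libraries, horizontal lines are the means of 2, and the dotted line divides the heat experiment from the H2O2 and KCl experiment. Ccn1 and Ccn2 peak at 2 h of H2O2 and KCl, and Ccn4 and Ccn5 are lowest at 7 h.

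At 2 h of either chemical stress, Ccn1 and Ccn2 RNA rose several-fold while Ccn5 RNA fell. Ccn1 was at 221 and 242 TPM in the control libraries, 1429.8 and 1446 after 2 h of H2O2, and 1281 and 1267 after 2 h of KCl. Every stressed library was far above both controls. The rise was 6.21-fold with H2O2 (log2 2.63, SE 0.089, edgeR adjusted p 2.0e-11) and 5.88-fold with KCl (log2 2.56, SE 0.088, adjusted p 5.9e-11). The difference between the agents at 2 h was 0.078 (SE 0.083) and did not pass the test (adjusted p 0.461).

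Ccn2 was at 57.3 and 68.1 TPM in the control libraries, 542 and 589.7 after 2 h of H2O2, and 262 and 287 after 2 h of KCl. The 3 groups did not overlap. The rise was 9.03-fold with H2O2 (log2 3.17, SE 0.087, adjusted p 4.2e-12) and 4.68-fold with KCl (log2 2.23, SE 0.085, adjusted p 1.2e-10). Here the agents differed: Ccn2 was 1.93-fold higher with H2O2 than with KCl (log2 0.95, SE 0.080, adjusted p 3.2e-07).

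Ccn4 was at 87.9 and 85.6 TPM in the control libraries, 124 and 118 after 2 h of H2O2, and 60.5 and 67.9 after 2 h of KCl. It lay above the control with H2O2 and below it with KCl. The change was 0.48 with H2O2 (SE 0.068, adjusted p 4.4e-05) and -0.34 with KCl (SE 0.069, adjusted p 7.5e-04). The difference between the agents was 0.83 (SE 0.069, adjusted p 2.9e-07). The row named Ccn4, taken alone, passed neither test against control at 2 h (adjusted p 0.466 with H2O2 and 0.134 with KCl).

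Ccn5 was at 207 and 188 TPM in the control libraries, 148 and 118 after 2 h of H2O2, and 147 and 142 after 2 h of KCl. Both stressed groups lay below the control, and they overlapped each other in TPM but not in CPM, where H2O2 was the lower. The fall was 1.48-fold with H2O2 (log2 -0.56, SE 0.12, adjusted p 0.0012) and 1.27-fold with KCl (log2 -0.34, SE 0.12, adjusted p 0.0244). The difference between the agents at 2 h was -0.22 (SE 0.12) and did not pass (adjusted p 0.148), but it passed with no filter on low counts (0.0215) and without H2O2 replicate 1 (-0.40, adjusted p 0.0183). The KCl fall did not pass without control replicate 1 (adjusted p 0.172), without KCl replicate 2 (0.0787) or on the TPM scale (0.0730). In all, 3 of the 4 genes rose and 1 fell after 2 h of H2O2, where 53.9% of all genes tested passed (27.3% higher, 26.5% lower). After 2 h of KCl 2 rose and 2 fell, where 54.2% passed (27.2% higher, 27% lower). Passing was thus common among all genes. By size of change, Ccn1 and Ccn2 ranked 721 and 549 of 13255 genes with H2O2 and 579 and 707 with KCl. Between the agents at 2 h, Ccn2 and Ccn4 passed and were higher with H2O2, beside 51.2% of all genes passing and 27% higher.

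At 7 h the order had changed: Ccn4 and Ccn5 RNA were well below the control with both agents, Ccn1 was still above it and Ccn2 was not. Ccn1 was at 279.6 and 348 TPM after 7 h of H2O2 and 473 and 459 after 7 h of KCl, all above the control libraries. The rise was 1.43-fold with H2O2 (log2 0.52, SE 0.085, adjusted p 7.6e-05) and 2.16-fold with KCl (log2 1.11, SE 0.085, adjusted p 4.9e-08). Ccn1 was 1.51-fold lower with H2O2 than with KCl (log2 -0.59, SE 0.084, adjusted p 1.5e-05).

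Ccn2 was at 47.9 and 52.8 TPM after 7 h of H2O2 and 29.1 and 27.96 after 7 h of KCl. Both groups lay below the control, KCl more so. The fall was 2.05-fold with KCl (log2 -1.03, SE 0.089, adjusted p 1.6e-07) and 1.18-fold with H2O2 (log2 -0.24, SE 0.085, adjusted p 0.0232). The smaller fall did not pass without H2O2 replicate 1 (log2 -0.17, adjusted p 0.196) or without control replicate 2 (log2 -0.12, adjusted p 0.273). Ccn2 was thereby higher with H2O2 than with KCl at 7 h, by 0.80 (SE 0.091, adjusted p 1.5e-06).

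Ccn4 was at 28.7 and 32.1 TPM after 7 h of H2O2 and 30.8 and 31.8 after 7 h of KCl, overlapping each other and below every other library. The fall was 2.71-fold with H2O2 (log2 -1.44, SE 0.071, adjusted p 2.7e-10) and 2.58-fold with KCl (log2 -1.37, SE 0.072, adjusted p 1.3e-09). The agents did not differ by test at 7 h (-0.069, SE 0.073, adjusted p 0.397). That last value rests on how the rows are handled, since it was -0.24 in the Wisp1 row alone (adjusted p 0.0056) and 3.65 in the row named Ccn4 alone (adjusted p 9.4e-06), and the H2O2 fall itself was -0.18 in the latter row (adjusted p 0.592).

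Ccn5 was at 21.1 and 23.7 TPM after 7 h of H2O2 and 40.1 and 55.5 after 7 h of KCl, both groups far below the 207 and 188 of the control. The fall with H2O2 was the larger, 8.31-fold (log2 -3.06, SE 0.14, adjusted p 9.0e-11), against 3.89-fold with KCl (log2 -1.96, SE 0.13, adjusted p 1.0e-08). The difference between the agents was -1.09 (SE 0.14, adjusted p 5.9e-06). In bulk libraries fewer cells with the RNA and less RNA per cell cannot be told apart. The 10 fibroblast markers moved too: their summed level was 4265 to 4280 TPM after 7 h of H2O2, against 9426 to 9505 in the control libraries and 8448 to 9283 after 7 h of KCl. The leukocyte markers summed to 42.8 to 44.8 TPM after 7 h of H2O2 and to 9.59 to 9.98 in the control libraries, nearly all of it Cd68, with Ptprc at 0.05 TPM or less, and the part of these shifts in the Ccn5 fall was not tested. At 7 h, 1 of the 4 genes rose and 3 fell with each agent, where 70.5% of all genes passed with H2O2 (39.4% higher, 31.1% lower) and 68.8% with KCl (37.2% higher, 31.6% lower). Between the agents 1 was higher and 2 lower with H2O2, where 78.4% of all genes passed.

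Going from 2 h to 7 h, all 4 RNAs fell with each agent. With H2O2 the falls were 4.34-fold for Ccn1, 10.6-fold for Ccn2, 3.78-fold for Ccn4 and 5.63-fold for Ccn5, with 36.1% of all genes called lower and 73.4% either way. With KCl they were 2.72-fold for Ccn1, 9.58-fold for Ccn2, 2.03-fold for Ccn4 and 3.07-fold for Ccn5, with 33.7% called lower and 68.8% either way. The largest of these adjusted p-values was 6.5e-08, for Ccn5 with KCl. In the row named Ccn4 alone the fall with H2O2 did not pass (log2 -0.44, adjusted p 0.194). From lowest to highest RNA level, Ccn1 ran control, H2O2 7 h, KCl 7 h, KCl 2 h, H2O2 2 h, and the last neighbours did not differ by test. Ccn2 ran KCl 7 h, H2O2 7 h, control, KCl 2 h, H2O2 2 h, with no overlap. Ccn4 ran H2O2 7 h and KCl 7 h together, then KCl 2 h, control, H2O2 2 h. Ccn5 ran H2O2 7 h, KCl 7 h, then H2O2 2 h and KCl 2 h, which overlapped in TPM and did not differ by the main test, then control.

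Footprint TPM gives a gene's share of all footprints in a library, scaled for gene length and taken over all copies of its mRNA. In the control group Ccn1 and Ccn2 had similar footprint levels, 1803 and 1701 TPM for Ccn1 and 1755 and 1570.0 TPM for Ccn2, although Ccn1 RNA was the more abundant. Ccn4 had 239 and 140.0 TPM and Ccn5 only 12.3 and 12.4. The ratio of mean footprint TPM to mean RNA TPM was 26.5 for Ccn2 (lowest and highest over the 4 combinations of libraries 23.1 and 30.6), 7.57 for Ccn1 (7.03 to 8.16), 2.19 for Ccn4 (1.59 to 2.80) and 0.0625 for Ccn5 (0.0594 to 0.0660). The median of 10467 genes was 0.639, and the 4 genes stood at the 99.6th, 99.1st, 94.4th and 0.955th percentiles. Ccn5 thus lay at the opposite end of the range from its relatives, on 35 and 33 footprint counts, the precision of which is low.

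**Figure D3:**
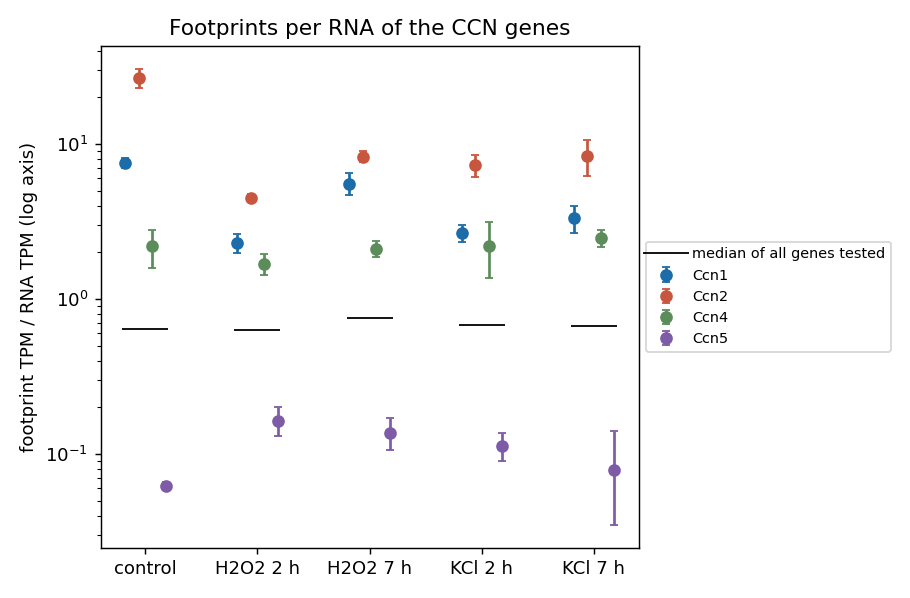
Ratio of mean footprint TPM to mean RNA TPM (log axis) in the 5 conditions with footprints. Points are the 4 genes, bars run from the lowest to the highest ratio over the combinations of 2 footprint and 2 RNA libraries, and black lines are the medians of all genes tested. Ccn2 drops from 26.5 in the control to between 4.51 and 8.38 under stress, and Ccn5 stays below the median in every condition.

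After 2 h, Ccn1 footprints rose, by less than Ccn1 RNA, and those of the other 3 genes did not pass the test. Ccn1 footprints were at 2848 and 3745 TPM with H2O2 and 3788 and 3007 with KCl, all above both controls. They rose 1.97-fold with H2O2 (log2 0.98, SE 0.22, adjusted p 0.0359) and 2.00-fold with KCl (log2 1.00, SE 0.22, adjusted p 0.0145). The H2O2 call was lost without H2O2 replicate 2 (adjusted p 0.111), without control replicate 1 (0.163) or 2 (0.172), with only these 2 groups fitted (0.154) and on the TPM scale (0.149). The KCl call was lost without control replicate 1 (0.0739) or 2 (0.0800), without KCl replicate 1 (0.102) and on the TPM scale (0.0911).

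Ccn2 footprints were at 2516 and 2586 TPM after 2 h of H2O2 and 2239.6 and 1774 after 2 h of KCl. Both groups lay above the control, but the changes of 0.69 (SE 0.22, adjusted p 0.130) and 0.32 (SE 0.22, adjusted p 0.457) did not pass. Ccn4 footprints were at 178 and 232 TPM with H2O2 and 189 and 92.7 with KCl, and both groups overlapped the control. Ccn5 footprints were at 23.7 and 19.4 TPM with H2O2 and 19.4 and 13.2 with KCl, from 25 to 75 and 24 to 37 counts, with changes of 0.80 (SE 0.36, adjusted p 0.280) and 0.24 (SE 0.37, adjusted p 0.793). Ccn1 was thus the 1 gene of the 4 to pass with either agent, where 1.91% of all genes passed with H2O2 (1.14% higher) and 6.86% with KCl (1.79% higher). The 4 differences between the agents at 2 h had adjusted p-values from 0.278 (Ccn4) to 0.972 (Ccn1), where 5.12% of all genes passed.

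After 7 h, footprints of Ccn2, Ccn4 and Ccn5 had fallen with both agents, and those of Ccn1 did not pass the test. Ccn2 was at 429 and 402 TPM with H2O2 and 296 and 182 with KCl, against 1755 and 1570.0 in the control. No stressed library came near a control library. The fall was 4.33-fold with H2O2 (log2 -2.11, SE 0.23, adjusted p 2.0e-05) and 6.80-fold with KCl (log2 -2.77, SE 0.23, adjusted p 1.2e-05).

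Ccn1 footprints were at 1819.5 and 1636 TPM after 7 h of H2O2 and 1835 and 1266 after 7 h of KCl, and the changes of -0.14 with each agent did not pass (adjusted p 0.682 and 0.665). Ccn4 footprints were at 68.2 and 59.97 TPM with H2O2 and 86.2 and 69.0 with KCl. All 4 libraries lay below both controls. The fall was 3.10-fold with H2O2 (log2 -1.63, SE 0.29, adjusted p 9.7e-04) and 2.42-fold with KCl (log2 -1.27, SE 0.28, adjusted p 0.0078).

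Ccn5 footprints were at 3.59 and 2.52 TPM after 7 h of H2O2 and 5.66 and 1.94 after 7 h of KCl, on 5 to 10 counts per library. Small as the counts were, each was below both controls. The fall was 4.33-fold with H2O2 (log2 -2.12, SE 0.46, adjusted p 0.0038) and 3.53-fold with KCl (log2 -1.82, SE 0.45, adjusted p 0.0138). With KCl the Ccn4 call was lost without control replicate 1 (adjusted p 0.0673), without KCl replicate 2 (0.0843) and on the TPM scale (0.0884), and the Ccn5 call without control replicate 2 (0.0541) or KCl replicate 2 (0.144). Hence 3 of the 4 genes fell with each agent, where 10.6% of all genes were called lower with H2O2 and 9.83% with KCl (27.7% and 20.4% either way).

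From 2 h to 7 h all 4 footprint levels fell with each agent, as the RNA had. With H2O2 the log2 changes were -1.12 for Ccn1 (adjusted p 0.0019), -2.80 for Ccn2 (3.1e-06), -1.82 for Ccn4 (4.9e-04) and -2.92 for Ccn5 (3.7e-04), where 11.1% of all genes were called lower and 29.8% either way. With KCl they were -1.15 for Ccn1 (adjusted p 0.0035), -3.09 for Ccn2 (3.2e-05), -0.91 for Ccn4 (0.0384) and -2.06 for Ccn5 (0.0079), where 8.43% were called lower and 20.6% either way. With KCl, the Ccn4 and Ccn5 calls were lost without replicate 1 at 2 h (adjusted p 0.373 and 0.0583) or without replicate 2 at 7 h (0.206 and 0.0836), and the Ccn4 call also without replicate 1 at 7 h (0.108) and on the TPM scale (0.258). Between the agents at 7 h Ccn2 alone passed, higher with H2O2 by 0.65 (SE 0.22, adjusted p 0.0294), where 41.2% of all genes passed and 23.5% were higher. That call was lost without H2O2 replicate 1 (adjusted p 0.118) or 2 (0.127) and without KCl replicate 2 (0.267).

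**Figure D4:**
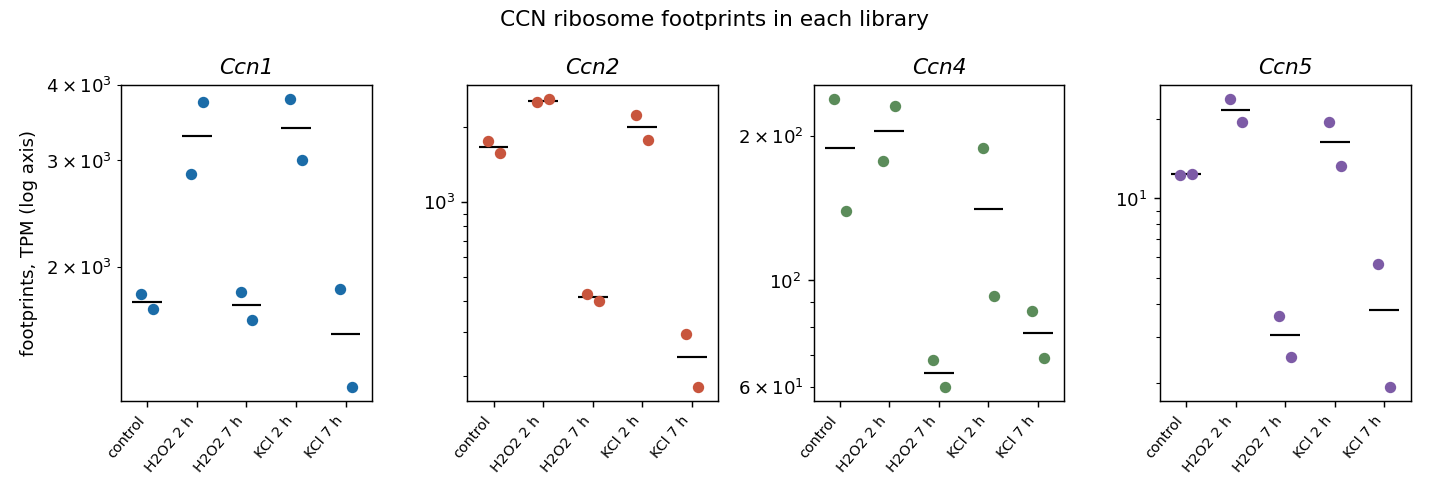
Footprint level in TPM on a log axis (each panel has its own range) for the 4 genes in the 10 footprint libraries. Points are libraries and horizontal lines are the means of 2. Ccn2, Ccn4 and Ccn5 lie lower at 7 h than at 2 h with both agents, and Ccn1 returns to near the control level.

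Translational efficiency was compared as the change of footprints beyond the change of RNA, in 1 model over the 20 libraries of the H2O2 and KCl experiment. For Ccn2 it fell in all 4 stress groups, and for Ccn1 in 3. Ccn2 changed by -2.53 after 2 h of H2O2 (SE 0.24, adjusted p 7.9e-06), -1.88 after 7 h of H2O2 (SE 0.24, adjusted p 1.9e-04), -1.92 after 2 h of KCl (SE 0.23, adjusted p 5.7e-05) and -1.71 after 7 h of KCl (SE 0.24, adjusted p 7.2e-04). Relative to other genes, Ccn2 footprints per RNA were thus lower by between 3.27-fold and 5.76-fold, while at 2 h its RNA was 9.03-fold and 4.68-fold higher. RNA and footprint libraries were scaled separately, so a change of translation shared by most genes would not show in these values.

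Ccn1 changed by -1.69 after 2 h of H2O2 (SE 0.23, adjusted p 2.9e-04), -1.56 after 2 h of KCl (SE 0.23, adjusted p 3.1e-04) and -1.23 after 7 h of KCl (SE 0.23, adjusted p 0.0052). At 7 h of H2O2 its change of -0.65 (SE 0.23) did not pass (adjusted p 0.0898). Ccn4 changed by between -0.32 (SE 0.31) and 0.12 (SE 0.32), and none of its 4 adjusted p-values was below 0.528. Ccn5 rose by 1.31 after 2 h of H2O2 (SE 0.33, adjusted p 0.0178), and its other changes, 0.92 (SE 0.55), 0.58 (SE 0.36) and 0.13 (SE 0.52), did not pass (adjusted p 0.332, 0.323 and 0.924). The Ccn5 rise did not pass in limma with weights for each kind of library (adjusted p 0.197). It also did not pass without RNA H2O2 replicate 2 (0.0599), RNA control replicate 1 (0.0543), footprint H2O2 replicate 2 (0.0550) or footprint control replicate 1 (0.0670). The 3 calls of Ccn1 and the 4 of Ccn2 were kept in every alternative run for this model, leaving out any 1 library included. Of all 10480 genes tested, 11.4% passed after 2 h of H2O2 (3.98% higher, 7.46% lower), where 1 of the 4 rose and 2 fell, and 9.27% after 7 h of H2O2 (4.57% lower), where 1 fell. With KCl 12.8% passed after 2 h (9.18% lower) and 5.57% after 7 h (3.88% lower), where 2 of the 4 fell each time.

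**Figure D5:**
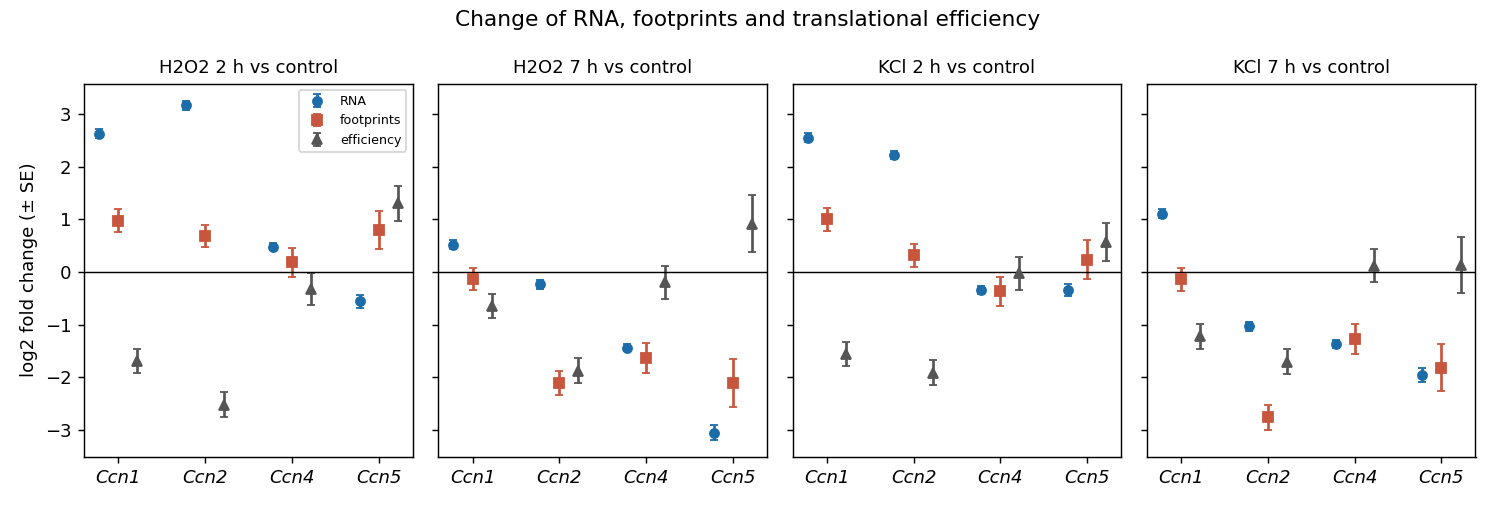
Log2 change against the shared control (± SE) of RNA (circles), footprints (squares) and translational efficiency (triangles) for each gene in the 4 stress groups. At 2 h the RNA points of Ccn1 and Ccn2 lie between 2.23 and 3.17 and their efficiency points between -2.53 and -1.56.

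The genes around the CCN proteins were taken from lists of known pathway members, and the share of all genes called in the same comparison stands beside each count. Of 21 other YAP/TAZ-TEAD targets, 17 rose and 2 fell in RNA after 2 h of KCl (median log2 change 0.40, all genes 0), where 27.2% of all genes were called higher. Among them were Ankrd1, a muscle ankyrin repeat protein, at 2.13 (SE 0.10), Amotl2, an angiomotin that binds YAP, at 1.69 (SE 0.079), and F3, tissue factor, at 1.56 (SE 0.098). After 2 h of H2O2, 10 rose and 6 fell (median 0.076), where 27.3% of all genes rose and 26.5% fell, with F3 at 2.45 (SE 0.099), Ankrd1 at 2.13 (SE 0.10) and Gadd45b at 0.97 (SE 0.067). The rise of the median target was thus small beside that of Ccn1 and Ccn2. After 7 h, 8 rose and 11 fell with H2O2 (median -0.35), where 39.4% of all genes rose and 31.1% fell. With KCl 10 rose and 5 fell (median 0.16), where 37.2% rose and 31.6% fell, so the number passing was close to the share over all genes. In heat, 3 of the 21 were on the high side and 13 on the low side at 44 °C (median -0.32), where 71% of all genes were past the threshold and 35.6% on the low side. At 42 °C they were 10 and 4 (median 0.029), where the shares were 31.7% and 32%.

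In translational efficiency, 5 of the 21 targets fell after 2 h of H2O2 (median -0.32), where 7.46% of all genes fell, and 8 fell after 2 h of KCl (median -0.59), where 9.18% fell. F3 changed by -2.14 with H2O2 (SE 0.31, adjusted p 3.8e-04) and -1.90 with KCl (SE 0.31, adjusted p 6.4e-04). Ankrd1 changed by -1.82 (SE 0.19, adjusted p 2.4e-05) and -1.33 (SE 0.19, adjusted p 2.0e-04). Both genes, like Ccn1 and Ccn2, thus had higher RNA and lower efficiency at 2 h. Efficiency subtracts the same RNA change, so a large rise of RNA lowers it unless footprints rise as much. Amotl2 and Gadd45b, also named above for their RNA, did not pass in efficiency at 2 h. Amotl2 changed by 0.20 with H2O2 (SE 0.27, adjusted p 0.679) and -0.11 with KCl (SE 0.27, adjusted p 0.849). Gadd45b changed by 0.42 with H2O2 (SE 0.20, adjusted p 0.186) and -0.21 with KCl (SE 0.21, adjusted p 0.562). After 7 h of H2O2, 4 of the 21 targets rose in efficiency and 2 fell (median 0.012), where 9.27% of all genes passed. After 7 h of KCl, 1 rose and 2 fell (median -0.29), where 5.57% passed.

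Of 17 Hippo pathway kinases, scaffolds and TEAD factors, 12 rose and 1 fell after 2 h of KCl (median 0.48), where 27.2% of all genes rose, and 14 rose and 2 fell after 7 h (median 0.63), where 37.2% rose. Tead1, a DNA-binding partner of YAP, rose by 1.46 after 7 h of KCl (SE 0.10) and Lats2, a kinase that inactivates YAP, by 1.22 (SE 0.064). With H2O2, 6 rose and 5 fell after 2 h, where 53.9% of all genes passed, and 6 rose and 7 fell after 7 h, where 70.5% passed.

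Of 9 receptors for CCN proteins, 7 rose in RNA after 2 h of KCl (median 0.53), where 27.2% of all genes rose, and 6 rose and 1 fell after 2 h of H2O2 (median 0.41), where 27.3% rose and 26.5% fell. Itgav, the integrin alpha-v chain, rose by 0.98 with KCl (SE 0.10), and Sdc4, syndecan-4, by 1.03 with H2O2 (SE 0.076). At 7 h, 6 rose and 2 fell with KCl (median 0.71), where 68.8% of all genes passed, while 2 rose and 4 fell with H2O2 (median -0.046), where 70.5% passed. In the test between the agents at 7 h, 7 receptors were lower with H2O2 and 2 higher, where 37.4% and 41% of all genes were. In efficiency, 5 receptors fell after 2 h of KCl, where 9.18% of all genes fell.

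Of 13 TGF-beta ligands, receptors and SMADs, 6 rose and 4 fell after 2 h of H2O2, where 53.9% of all genes passed, and 8 rose and 4 fell after 2 h of KCl, where 54.2% passed. The feedback inhibitor Smad7 rose by 1.81 with H2O2 (SE 0.11) and 2.12 with KCl (SE 0.11), and the SMAD repressor Skil by 1.75 (SE 0.085) and 1.77 (SE 0.085). Of 12 Wnt targets and factors tested of 15, 9 fell and 1 rose after 7 h of H2O2 (median -0.57), where 31.1% of all genes fell, and 6 fell and 4 rose after 7 h of KCl (median -0.39), where 31.6% fell and 37.2% rose. Axin2, a feedback inhibitor of Wnt signalling, changed by -1.61 after 2 h of H2O2 (SE 0.14) and 0.50 after 2 h of KCl (SE 0.12), which are the signs opposite to those of Ccn4 in the same groups.

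Of 10 other matricellular genes tested of 11, 5 rose after 2 h of KCl (median 0.33), where 27.2% of all genes rose, and 5 fell and 2 rose after 7 h of H2O2 (median -0.48), where 31.1% fell and 39.4% rose. Thbs1, thrombospondin-1, rose by 0.47 after 2 h of H2O2 (SE 0.073) and fell after 7 h, at -2.69 (SE 0.078). Tnc, tenascin-C, was higher in all 4 stress groups, by between 0.24 (SE 0.061) and 0.90 (SE 0.062). Of the remaining CCN family, Ccn3 (row Nov) rose by 0.64 after 2 h of H2O2 (SE 0.095, adjusted p 6.5e-05) and did not pass in the other 3 stress groups, and Ccn6 did not pass the filter on low counts.

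The 4 RNAs were compared by their pattern over the 16 libraries, on log2 CPM centred within each experiment. The heat libraries, which the choice of the genes used, are among the 16. Pearson's r was 0.85 between Ccn1 and Ccn2 and 0.84 between Ccn4 and Ccn5, and lay between 0.30 (Ccn1 and Ccn5) and 0.75 (Ccn2 and Ccn4) for the others. In the 10 libraries of H2O2 and KCl alone, r was 0.84 for Ccn1 and Ccn2 and 0.86 for Ccn4 and Ccn5. The others lay between 0.32 (Ccn1 and Ccn5) and 0.78 (Ccn2 and Ccn4). These describe libraries that share conditions and depth, with replicates counted singly. Each of the 4 had genes outside the family with a higher r than its closest relative, so these values do not mark pairs apart from other genes. Of 9115 genes, the most like Ccn1 was Zzz3 (r 0.91), then Lrrc8c, Pdia5, Cdc42ep3 and Naaa. The most like Ccn2 were Eif1a (0.97) and F3 (0.96), then Creb5, Nipal1 and Plscr1. For Ccn4 they were Il1rn (0.95), Lmbr1, Mfsd10, Lrp8 and Klhdc8a, and for Ccn5 Atp8b2 (0.99), Sema3f, Cpt1a, Dnm1 and Fam189b.

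The study's own subject is transcription that runs past a gene's end into its neighbour. In the authors' deposited calls over 6399 gene pairs, Ccn2 was called as running on toward Med23 in both libraries of KCl at 2 h and in no other of the 16. Ccn1 toward Clca2 was called in 1 library (42 °C, replicate 2), and Pkig, the gene upstream of Ccn5, toward Ccn5 in 1 library (KCl 7 h, replicate 2). Read-in, the call that such transcription reached the downstream gene, was made in 0 of 16 libraries for each of these 3 pairs, and Ccn4 is in no pair. How many of all pairs were called in each library was not counted, so neither kind of call is read as particular to these genes. Ccn5 was at 55.5 TPM in that KCl library and at 40.1 in the other replicate, and whether this difference is linked to the call was not tested.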

How the data were processed

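PolyA-selected RNA (16 libraries) and ribosome footprints (10) were compared in 13 groups of 2. The authors deposited RSEM expected counts and TPM per gene symbol, and their calls of transcription past gene ends as true or false values. The submitters' processing notes name STAR, Bowtie, RSEM and mm10, without versions. In those tables, 12 columns of values belong to no labelled sample and were left aside. Expected counts were used as deposited, with rows of older symbols summed and low genes removed with filterByExpr. Quasi-likelihood tests of edgeR 4.0.16 (R 4.3.3) were run with TMM scaling, separately for the heat RNA (12746 genes), other RNA (13255) and footprints (10545). Translational efficiency was the interaction of library kind and condition (10480 genes). P-values were Benjamini-Hochberg adjusted over all genes, with 0.05 as threshold. Standard errors are the log2 change divided by the root of F. TPM ratios and levels use deposited TPM. All 4 members passed each filter. Members and lists were chosen with earlier results of these data known. Named list genes are up to 3 per list and comparison, those with the largest change among called genes whose mean log2 CPM reached 3, and for some of them the values in other groups are given too. The likeness measure used a prior count of 2. Scripts were tested on simulated data. Alternatives were DESeq2 1.42.0, limma 3.58.1 on log2(TPM + 1) or with voom weights, no count filter, only the groups compared, a replicate block, each library left out, and the 2 rows of Ccn4 taken singly. The Wisp1 row alone was added after seeing the data.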

Additional observations from a re-analysis of the deposited data

Results flagged for a closer look

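Each of the 4 genes had a stress response that differed between 2 h and 7 h, tested as the 7 h minus 2 h difference within an agent by edgeR's quasi-likelihood test with Benjamini-Hochberg adjustment over all genes. In RNA with H2O2 the log2 differences were -2.12 for Ccn1, -3.41 for Ccn2, -1.92 for Ccn4 and -2.49 for Ccn5, and with KCl they were -1.45, -3.26, -1.02 and -1.62 in the same order. In footprints they were -1.12, -2.80, -1.82 and -2.92 with H2O2 and -1.15, -3.09, -0.91 and -2.06 with KCl. The 2 libraries at 7 h lay below the 2 libraries at 2 h in all 16 of these comparisons, and how many of all genes separate this way was not counted. In RNA, 36.1% of all genes were called lower with H2O2 (73.4% either way) and 33.7% with KCl (68.8% either way). In footprints the shares were 11.1% with H2O2 (29.8% either way) and 8.43% with KCl (20.6% either way). The KCl footprint differences of Ccn4 and Ccn5 did not pass when some of the single libraries were left out, and passed without others.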

How the results depend on the processing

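The replicate block moved no call of the 4 genes: with the block the RNA counts of genes passing stayed 4 after 2 h and 7 h of H2O2 and of KCl, and the footprint count after 2 h of H2O2 stayed 1. Correlations between groups of the replicate differences lay between -0.055 and 0.054 for the RNA of H2O2 and KCl, which shows no pairing by replicate number there. For footprints they lay between -0.38 and 0.42, above 0.1 in 6 of 10 group pairs, which does not decide whether replicate numbers pair those libraries. In the heat RNA they lay between -0.023 and 0.12. On log2(TPM + 1), 2 genes instead of 4 passed at 42 °C against control, with Ccn4 at -0.042, and 0 footprint genes instead of 1 passed after 2 h of H2O2 and of KCl. With only the 2 groups fitted, 0 passed in footprints after 2 h of H2O2. Ccn1 footprints, H2O2 against KCl at 7 h, were at 0.0067, and at -0.0091 with DESeq2, -0.010 without a filter and -0.029 with only the 2 groups, none of them past the threshold. Ccn4 efficiency after 2 h of KCl was at 0.010 with DESeq2. The row named Ccn4 alone gave -0.15 at 42 °C and 3.65 for H2O2 against KCl at 7 h, and taking rows under the present symbols only gives no value for the other 3 genes or for any footprint. TPM scaling moved the median of all genes by over 0.1 also at 42 °C against 44 °C (-0.20) and in footprints for H2O2 at 7 h against control (0.10), against 2 h (0.18) and against KCl (0.12). Leaving out 1 library left an arm with a lone sample, assumed to vary like the other groups. The counts then ran from 0 to 1 for footprints after 2 h of H2O2, after 2 h of KCl and for H2O2 against KCl at 7 h, from 1 to 3 after 7 h of KCl and from 2 to 4 for KCl at 7 h against 2 h. Uncalled differences that changed sign ranged, for H2O2 against KCl at 7 h, from -0.15 to 0.015 (Ccn4 RNA), -0.24 to 0.29 (Ccn1 footprints) and -0.90 to 0.48 (Ccn5 footprints), and at 2 h from -0.25 to 0.16 (Ccn1 footprints). Against control, footprints ranged from -0.089 to 0.52 for Ccn4 after 2 h of H2O2, -0.87 to 0.024 for Ccn4 and -0.076 to 0.49 for Ccn5 after 2 h of KCl, and -0.43 to 0.10 for Ccn1 after 7 h of KCl. Efficiency of Ccn4 ranged from -0.60 to 0.013 (H2O2 2 h), -0.44 to 0.14 (H2O2 7 h), -0.53 to 0.34 (KCl 2 h) and -0.14 to 0.45 (KCl 7 h), and that of Ccn5 from -0.64 to 0.76 (KCl 7 h). The causes were not tested. Footprint depth limits Ccn5, which had 5 to 75 counts per library.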
